A study of Danio rerio with 9 samples.

Results

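The CYP1 genes of the zebrafish, Danio rerio, were followed here in whole embryos that had developed malformations after exposure to a methanolic extract of coal dust. The 4 genes were chosen by gene symbol as cyp1a, cyp1b1, cyp1c1 and cyp1c2, each of which matched 1 gene identifier, among 32312 genes in the deposited count tables. The rule uses symbols and no measured value, but it was set with earlier results of these data known. CYP1 enzymes are haem-containing monooxygenases of the cytochrome P450 superfamily, and they oxidise planar aromatic molecules such as polycyclic aromatic hydrocarbons, a class of compounds found in coal. Their transcription is switched on by the aryl hydrocarbon receptor (AHR), a ligand-activated transcription factor that enters the nucleus, pairs with its partner ARNT and binds response elements near its target genes. In zebrafish embryos cyp1a is the standard reporter of this receptor, and its product is known to be induced in the endothelium, the epidermis and other epithelia.

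All libraries came from TU strain whole embryos at 24 h post fertilisation (hpf). Exposed embryos received 100 mg/L of the extract, dissolved in DMSO, from 4 hpf, and were sorted by their malformation before RNA was prepared from 50 embryos per phenotype group. Phenotype P1 had a deformed tail (3 libraries), P2 had a deformed yolk (2 libraries) and P3 were small embryos with extruded yolks (3 libraries). The control was 1 pooled library of embryos with a normal phenotype, and the labels do not say whether these embryos received DMSO. Since exposed embryos were sorted by outcome, each phenotype group is a selected fraction of the exposed embryos, and no library of exposed embryos with a normal shape was analysed here.

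The libraries held 12008832 counts (the control) to 20810487 counts, with 23315 to 24024 genes read at least once. The labels do not say whether libraries of a phenotype came from separate clutches, so the p-values speak of the variation among these libraries alone, part or all of which may be technical. The control had no replicate, and in tests against it the control was assumed to vary like the exposed libraries. One library stood apart from its group: P3 replicate 0 correlated with the other P3 libraries at 0.9894 and 0.9902 (Pearson correlation of log2 levels across genes), against 0.9931 between those. The differences of P3 from the other phenotypes in cyp1c1 and cyp1c2, and the list counts of P3 that changed, are given with and without it. Other results of P3, among them single listed genes and the make-up of the CYP1 pool, are given only with it or as ranges over the alternatives. A joint test over the phenotypes was run only with this library. Since all libraries shared a fit, it also enters the spread used in tests between the other groups. Percentages over all tested genes were taken with it.

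The members lie at separate places on the Zv9 assembly. The gene cyp1a (ENSDARG00000026039) is annotated on the plus strand of chromosome 18 from 4974676 to 4985566, and cyp1b1 (ENSDARG00000068934) on the plus strand of chromosome 13 from 42664264 to 42671929. On this assembly the CYP1C pair sits on unplaced sequence, with cyp1c1 (ENSDARG00000058980) at 103570 to 106640 on the plus strand of Zv9_NA892 and cyp1c2 (ENSDARG00000018298) at 298353 to 300627 on the minus strand of Zv9_scaffold3548. The reference annotation, however, lists cyp1c1 and cyp1c2 as direct neighbours. No other annotated gene overlapped any of the 4. The gene model behind the counts was 2608 bp long for cyp1a, 3388 bp for cyp1b1, 3071 bp for cyp1c1 and 1545 bp for cyp1c2. The CYP1C genes are close copies of each other, and the sources used here do not say how reads matching both were assigned, so their separate values are less certain than their shared direction.

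In the control, cyp1a had the most reads of the 4 members and cyp1c2 the fewest. The control library held 1420 reads of cyp1a, which is 119 CPM (library counts scaled to a common total; exact Poisson 95% interval 112 to 125, counting error only). It held 132 reads of cyp1b1 (11.0 CPM, interval 9.22 to 13.1), 47 of cyp1c1 (3.92 CPM, interval 2.88 to 5.22) and 16 of cyp1c2 (1.34 CPM, interval 0.764 to 2.17). Ranked by counts among all genes, cyp1a stood at 1392 from the top in the control, cyp1b1 at 9855, cyp1c1 at 13622 and cyp1c2 at 16716, with 23315 genes read in that library.

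In every exposed library all 4 transcripts were far above the control. For cyp1a, the best known member of the family and a major oxidiser of aromatic hydrocarbons, P1 libraries had 4189, 4028 and 4071 CPM, P2 libraries 3929 and 4078 CPM, and P3 libraries 3821, 4221 and 4310 CPM, against 119 CPM in the control. The exposed libraries formed 1 narrow band, with all 3 phenotypes overlapping. Their counts placed cyp1a 11th to 17th among all genes, and it took 0.382 to 0.428% of all counts against 0.0118% in the control. The fold change over the control was 34.5 in P1, 33.8 in P2 and 34.7 in P3 (edgeR quasi-likelihood test, adjusted p = 9.4e-16, 1.28e-15 and 9.23e-16), and in each of these comparisons cyp1a had the smallest p of all 19835 genes tested.

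**Figure D1:**
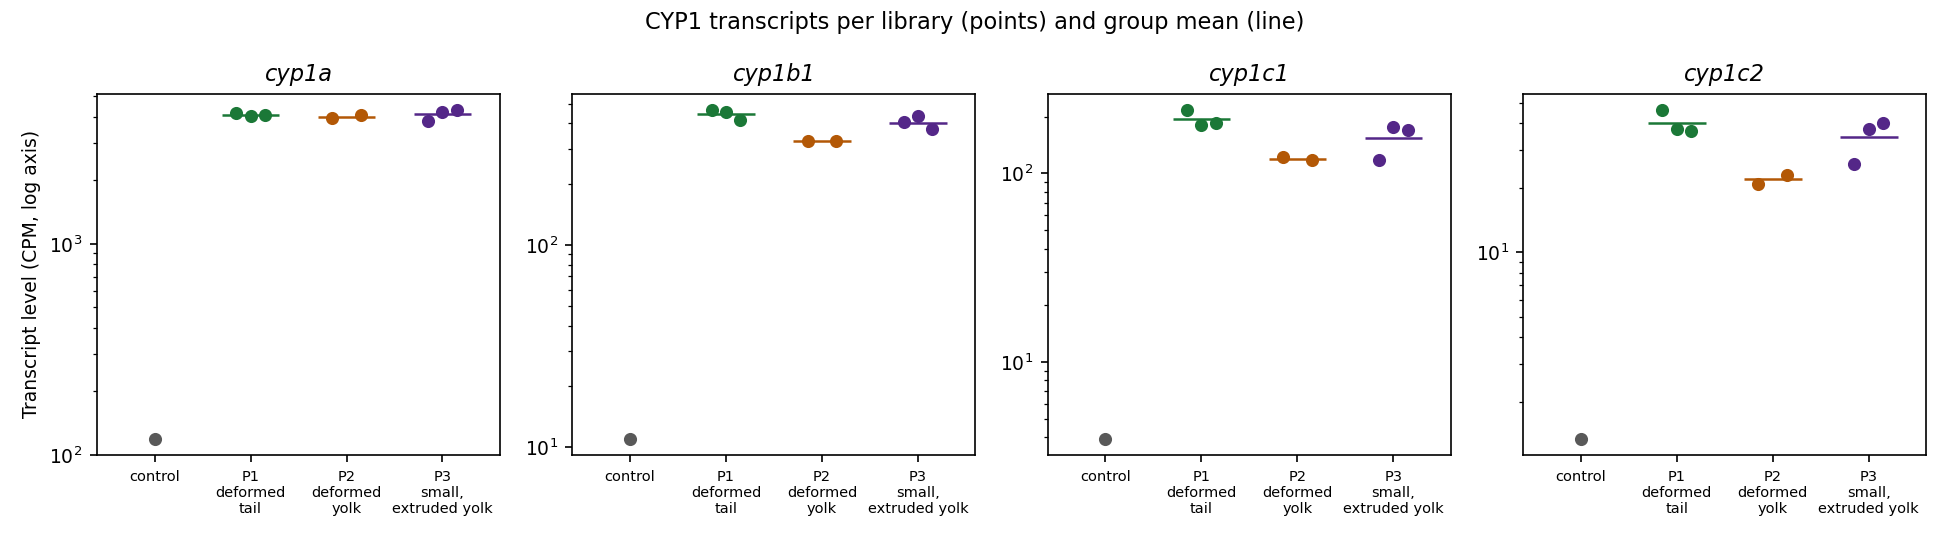
Transcript levels of the 4 CYP1 genes in CPM (log axis) in the control (1 library), P1 (3), P2 (2) and P3 (3); points are libraries and lines are group means. Every exposed library lies far above the control, by about the same distance for cyp1a in all phenotypes, while P2 lies lowest among the exposed groups for cyp1b1 and for cyp1c2.

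The gene cyp1b1 encodes a CYP1 enzyme that in vertebrates also metabolises steroids and retinoids and is known for its expression in the developing eye. P1 libraries had 466, 453 and 415 CPM, P2 libraries 327 and 329 CPM, and P3 libraries 404, 433 and 373 CPM, against 11.0 CPM in the control. Both P2 libraries lay below every P1 and P3 library, while P1 and P3 overlapped. Over the control, the log2 fold change was 5.33 ± 0.14 (SE) in P1, 4.89 ± 0.14 in P2 and 5.19 ± 0.14 in P3 (edgeR adjusted p = 1.8e-14, 6.93e-14 and 1.79e-14).

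The CYP1C genes belong to a CYP1 subfamily that mammals lack, and they too are inducible through AHR in zebrafish. For cyp1c1, P1 libraries had 217, 181 and 186 CPM, P2 libraries 122 and 118 CPM, and P3 libraries 118, 176 and 170 CPM, against 3.92 CPM in the control. P1 lay above P2 and above P3 without overlap, and P3 replicate 0, at 118 CPM, lay with the P2 libraries. The log2 fold change over the control was 5.63 ± 0.27 in P1, 4.93 ± 0.28 in P2 and 5.3 ± 0.27 in P3 (edgeR adjusted p = 2.28e-10, 8.48e-10 and 5.33e-10).

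For cyp1c2, P1 libraries had 46.2, 37.7 and 36.8 CPM, P2 libraries 20.9 and 23.0 CPM, and P3 libraries 25.9, 37.6 and 40.1 CPM, against 1.34 CPM in the control. P2 was again below all P1 and P3 libraries, P1 and P3 overlapped, and P3 replicate 0 was the lowest of its group. The log2 fold change over the control was 4.91 ± 0.35 in P1, 4.03 ± 0.39 in P2 and 4.69 ± 0.36 in P3 (edgeR adjusted p = 6.05e-08, 6.9e-07 and 5.58e-08), with wider errors because the control held 16 reads.

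All 4 members passed the test as higher in each of the 3 comparisons with the control, where 7.08% of all tested genes were higher in P1, 14.2% in P2 and 10.4% in P3. A position of every exposed library above the 1 control library was found for all 4 members and for 36.6% of all tested genes in P1, 44.1% in P2 and 37.2% in P3. By fold change over all 19835 tested genes, cyp1a, cyp1b1, cyp1c1 and cyp1c2 ranked 27, 24, 19 and 31 in P1. They ranked 45, 47, 46 and 57 in P2, and 46, 44, 42 and 47 in P3. These ranks include genes with fewer than 10 control reads. Among the 18046 tested genes with at least 10 control reads, P1 had cyp1c1, cyp1b1, cyp1a and cyp1c2 as ranks 1 to 4. In P3 the same order held, and in P2 cyp1a was rank 1, cyp1c1 rank 2, cyp1b1 rank 3 and cyp1c2 rank 6. These comparisons share the control library, so they do not count as separate evidence. In bulk RNA, fewer cells of a type and less RNA per cell cannot be told apart, and these levels say nothing of which cells held the transcripts. The authors' deposited table gives smaller, variance-corrected log2 ratios to the control, of 4.77 for cyp1a, 3.64 for cyp1b1, 3.05 for cyp1c1 and 1.64 for cyp1c2 in P1. For P2, the authors' deposited table has 4.21, 2.27, 1.54 and 0.65 in the same order, and for P3 it has 4.87, 3.97, 3.18 and 1.83.

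Compared per transcript length in the FPKM values of the authors, the order was cyp1a, cyp1b1, cyp1c1 and cyp1c2 in all 9 libraries. In P1 the mean level was 1568 ± 34.4 FPKM (SD, n = 3) for cyp1a, 131 ± 8.59 for cyp1b1, 63.2 ± 6.5 for cyp1c1 and 26.0 ± 3.43 for cyp1c2. In P2 (n = 2) cyp1a had 1544 ± 33.8 FPKM, cyp1c1 39.3 ± 1.27 and cyp1c2 14.3 ± 0.92, and in P3 (n = 3) the same genes had 1573 ± 95.2, 50.2 ± 10.3 and 22.2 ± 4.78. In the control the levels were 45.3, 3.24, 1.27 and 0.862 FPKM for cyp1a, cyp1b1, cyp1c1 and cyp1c2. The neighbours in this order were far apart in the exposed libraries, but cyp1c1 and cyp1c2 were not distinguishable in the control at this depth, where their ratio per length was 1.48 with an exact 95% interval of 0.823 to 2.79.

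Among the exposed groups, cyp1a was level while the other 3 members were lowest in embryos with a deformed yolk. The mean was 4096 ± 83.5 CPM for cyp1a in P1 (SD, n = 3), 4004 ± 105 in P2 (n = 2) and 4117 ± 260 in P3 (n = 3). Between P1 and P2 the log2 difference of cyp1a was 0.03 ± 0.06 (SE; 95% interval -0.09 to 0.16; edgeR adjusted p = 0.742), and between P3 and P1 it was 0.01 ± 0.05 (-0.1 to 0.12; 0.952). Between P3 and P2 it was 0.04 ± 0.06 (-0.08 to 0.16; adjusted p = 0.676). The intervals leave room for a difference in cyp1a of up to 0.16 on the log2 scale. Over the 8 exposed libraries the highest level of cyp1a was 1.13 times the lowest, and 6.83% of the 9394 genes with at least 10 CPM had a smaller ratio. That ratio was 1.43 for cyp1b1, 1.85 for cyp1c1 and 2.21 for cyp1c2, against a median of 1.27 over the same genes, and 80.3%, 96.5% and 98.6% of them had a smaller ratio. The ratio includes counting error, which is larger for genes with fewer reads than cyp1a. Beyond counting error, edgeR fitted a coefficient of variation within groups that is drawn toward the trend over all genes. This fitted value was 0.0538 for cyp1a, 0.0571 for cyp1b1, 0.0928 for cyp1c1 and 0.101 for cyp1c2, with a median of 0.0575 over all tested genes. The observed coefficient of cyp1a within groups, counting error included, was 2.04% in P1, 2.63% in P2 and 6.32% in P3.

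**Figure D2:**
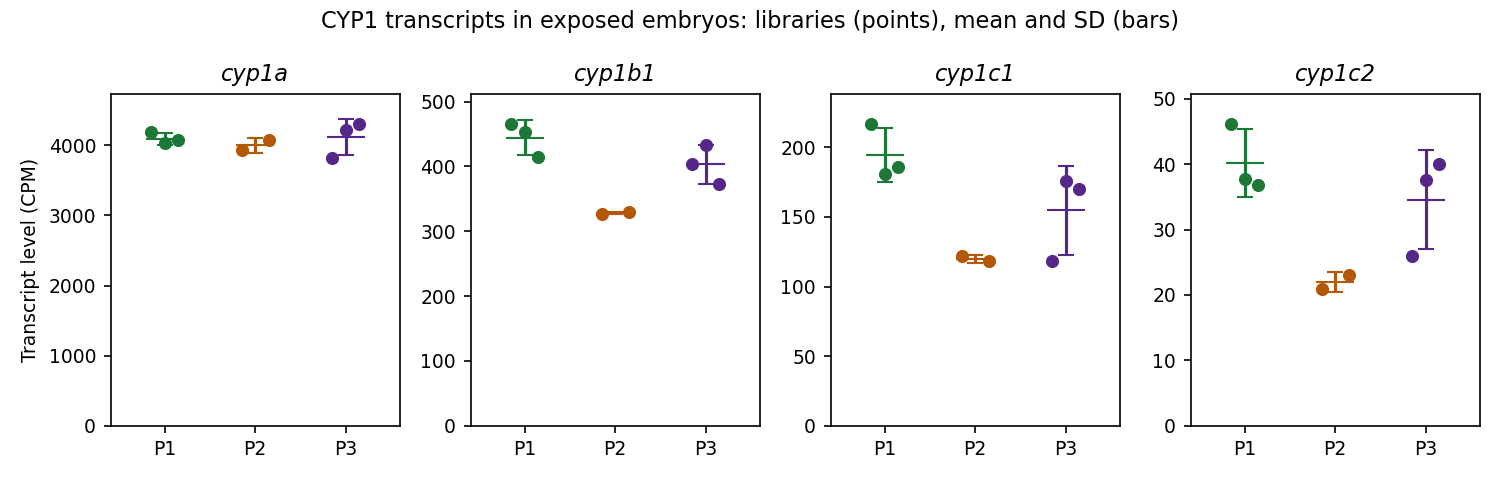
Levels of each CYP1 gene in CPM (linear axis from 0) in the exposed groups P1, P2 and P3; points are libraries, bars are the mean and SD (n = 3, 2 and 3). The cyp1a panel is flat, and in the other panels both P2 libraries are low, with P3 replicate 0, the leftmost P3 point, beside them for cyp1c1.

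The question of whether CYP1 transcripts differed between malformations was first asked with 1 joint test over the 3 phenotypes. A difference was called for cyp1b1 (adjusted p = 0.000445), cyp1c1 (0.000997) and cyp1c2 (0.000692) but not for cyp1a (0.842) by the edgeR test, in which 28.8% of all tested genes were called. Deformed-tail embryos (P1) exceeded deformed-yolk embryos (P2) in 3 of the 4 members, without overlap of the libraries. In that comparison 20.5% of all tested genes were called, 10.6% higher and 9.91% lower in P1, and 26.2% had all P1 libraries above both P2 libraries. The excess was 1.36-fold for cyp1b1 (log2 difference 0.44 ± 0.07, 95% interval 0.3 to 0.58, edgeR adjusted p = 0.000208). For cyp1c1 it was 1.62-fold (0.7 ± 0.12, 0.45 to 0.95, adjusted p = 0.000531) and for cyp1c2 1.83-fold (0.87 ± 0.14, 0.57 to 1.18, adjusted p = 0.000354). These 3 calls held in all alternatives run, also with 1 P2 library left, with log2 differences of 0.4 to 0.49 for cyp1b1, 0.61 to 0.75 for cyp1c1 and 0.76 to 0.95 for cyp1c2.

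Small embryos with extruded yolks (P3) also exceeded P2 in these 3 members, where 21.5% of all tested genes were called, 11% higher and 10.5% lower in P3. The log2 difference was 0.3 ± 0.07 for cyp1b1 (95% interval 0.15 to 0.44, edgeR adjusted p = 0.00441), 0.37 ± 0.12 for cyp1c1 (0.12 to 0.62, 0.0355) and 0.66 ± 0.14 for cyp1c2 (0.35 to 0.96, 0.00334). The libraries did not overlap for cyp1b1 and cyp1c2, where 24.8% of all genes had P3 above P2 in this way, and overlapped for cyp1c1. Leaving out a P2 library leaves 1, which is then assumed to vary like the other groups, and the differences stayed about as large while calls were lost. With P2 replicate 0 left out none of the 4 was called by edgeR (cyp1b1 0.29, adjusted p = 0.0655; cyp1c1 0.4, 0.151; cyp1c2 0.59, 0.0697). With P2 replicate 1 left out cyp1b1 was at 0.3 (edgeR adjusted p = 0.0555) and cyp1c1 at 0.34 (0.217), neither of them called. The call on cyp1c1 was also lost without P3 replicate 1 (0.27, edgeR adjusted p = 0.14) and without P3 replicate 2 (0.3, 0.131). With P3 replicate 0 left out, the differences grew to 0.53 for cyp1c1 (adjusted p = 3.26e-06) and 0.82 for cyp1c2.

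Between P3 and P1 none of the 4 members passed the test by edgeR or by DESeq2, where 10.4% of all genes were called by edgeR, 6.01% higher and 4.42% lower in P3. The log2 difference of P3 from P1 was -0.14 ± 0.06 for cyp1b1 (95% interval -0.27 to -0.01, edgeR adjusted p = 0.153), -0.33 ± 0.11 for cyp1c1 (-0.55 to -0.11, 0.0532) and -0.22 ± 0.12 for cyp1c2 (-0.47 to 0.04, 0.283). Of the 4 members, cyp1b1 and cyp1c1 had unadjusted p-values of 0.0307 and 0.0057 by edgeR. The libraries of cyp1c1 did not overlap, as was so for 13.2% of all tested genes lower in P3. The difference in cyp1c1 was called without P3 replicate 1 (adjusted p = 0.0217) and without P3 replicate 2 (0.0425), and it was -0.17 without P3 replicate 0. The difference in cyp1c2 was -0.05 without P3 replicate 0, -0.1 without P1 replicate 0 and -0.35 without P3 replicate 2, and that in cyp1b1 was -0.09 without P3 replicate 2, none of them called. In order of level, then, P1 and P3 did not differ beyond the threshold for any member, and P2 was the lowest of the exposed groups for cyp1b1, cyp1c1 and cyp1c2.

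**Figure D3:**
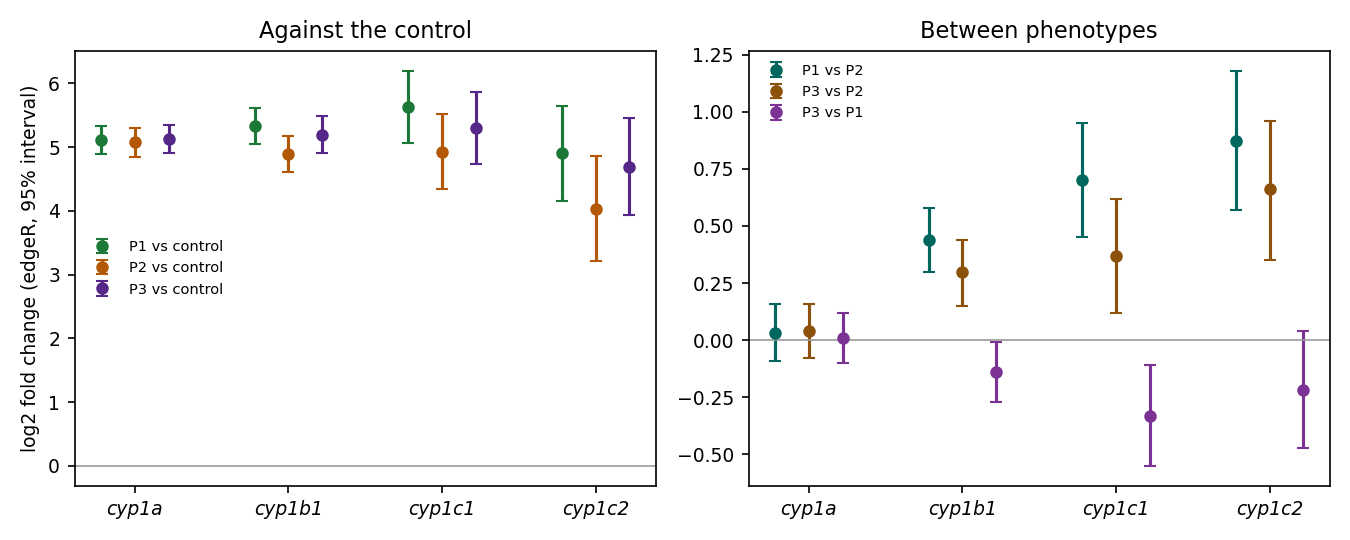
Log2 fold changes from edgeR with 95% intervals for the 4 CYP1 genes, against the control (left) and between phenotypes (right). On the left all values lie between 4.03 and 5.63, and on the right the differences from P2 are near 0 for cyp1a (0.03 and 0.04) and highest for cyp1c2 (0.87 and 0.66).

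The make-up of the CYP1 transcript pool, which does not depend on scaling between libraries, differed in the same way. Together the 4 genes took 0.0134% of the control counts and 0.437 to 0.493% of the exposed counts. The share of cyp1a in the pool was 87.9% in the control (Wilson 95% interval 86.2 to 89.4%, counting error only). It was 85.2, 85.7 and 86.5% in the P1 libraries, 89.3 and 89.7% in the P2 libraries and 87.5, 86.7 and 88.1% in the P3 libraries. The 3 phenotypes did not overlap, with P1 lowest and P2 highest, and the control lay between P1 and P2, inside the range of P3. The difference of P1 from P2 in the mean share was -3.71 percentage points (two-sided exact permutation p = 0.2, the smallest that 3 against 2 libraries can give). P3 differed from P1 by 1.64 points (exact permutation p = 0.1, the smallest that 3 against 3 can give) and from P2 by -2.07 points (exact permutation p = 0.2), and all adjusted values over these 3 comparisons were 0.2.

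Relative to cyp1a, the mean counts of the other members varied between groups. The control values rest on 132 reads of cyp1b1, 47 of cyp1c1 and 16 of cyp1c2, and shifts from the control were not tested. Counts of cyp1b1 were 9.3% of those of cyp1a in the control, 10.9% in P1, 8.2% in P2 and 9.83% in P3. Counts of cyp1c1 were 3.31%, 4.74%, 3.0% and 3.73% of those of cyp1a in the same order, and counts of cyp1c2 were 1.13%, 0.98%, 0.548% and 0.832%. So cyp1c2 was lower relative to cyp1a in the means of all exposed groups than in the control, where its value rests on 16 reads. The ratio of cyp1c1 to cyp1c2 counts was 2.94 in the control, with an exact 95% interval of 1.64 to 5.55. It was 4.7, 4.8 and 5.05 in P1, 5.85 and 5.1 in P2, and 4.58, 4.68 and 4.23 in P3. All exposed libraries but P2 replicate 0 lay inside the interval of the control, and the exact 95% interval of that library (5.22 to 6.58) overlapped the control interval. All exposed ratios (4.23 to 5.85) lay above the control value of 2.94, which rests on 16 reads of cyp1c2. Overlap of intervals is not a test of a difference, and a shift within the pair on exposure was not tested. The log2 ratio in P1 differed from that in P2 by -0.173 (exact permutation p = 0.2), and P3 differed from P1 by -0.11 (exact permutation p = 0.1) and from P2 by -0.283 (exact permutation p = 0.2), each the smallest p these group sizes allow. P2 replicate 0 weighs on the first and the last of these, which were -0.07 and -0.18 without it, and the first was -0.27 without P2 replicate 1. The difference between P3 and P1 was -0.07 without P3 replicate 2.

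**Figure D4:**
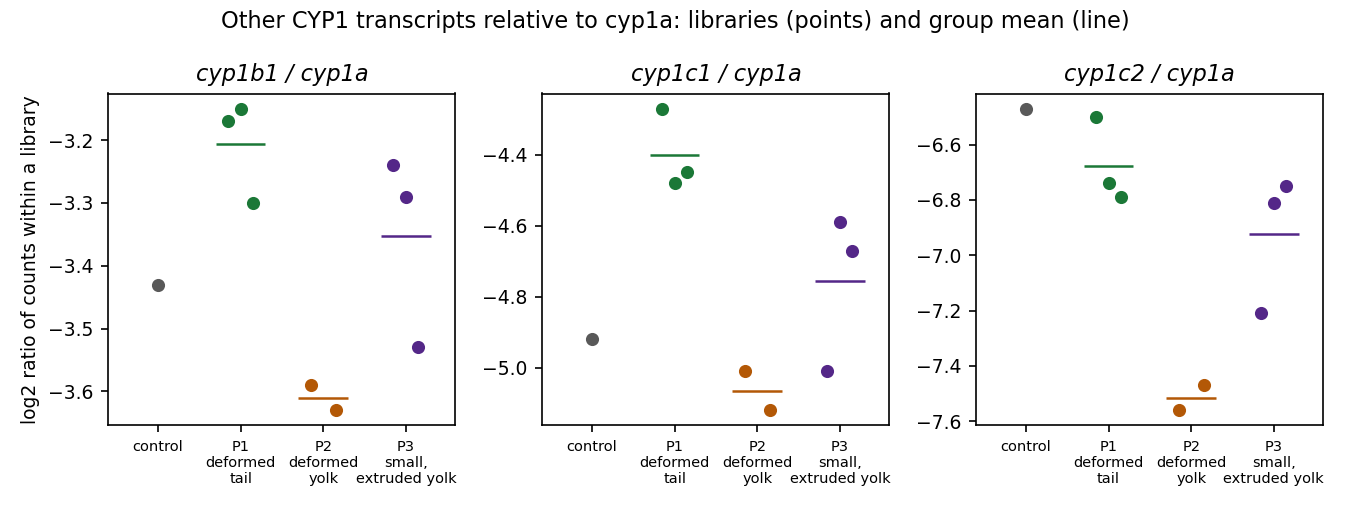
Log2 ratio of the counts of cyp1b1, cyp1c1 and cyp1c2 to those of cyp1a within each library; points are libraries of the control (1), P1 (3), P2 (2) and P3 (3), and lines are group means. Both P2 libraries have the lowest ratios for cyp1b1 and cyp1c2, P3 replicate 0 (leftmost P3 point) lies beside them for cyp1c1, and the control is above every other library for cyp1c2 only.

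The fifth zebrafish CYP1 gene, cyp1d1, which has been reported not to respond to AHR agonists in zebrafish, had a different pattern. It was at 7.77 CPM in the control, 5.4, 7.79 and 5.7 CPM in P1, 9.56 and 8.04 CPM in P2, and 6.48, 6.93 and 7.77 CPM in P3. The control lay within the range of the exposed libraries. Against the control the log2 difference was -0.31 ± 0.22 in P1, 0.18 ± 0.22 in P2 and -0.13 ± 0.21 in P3 (edgeR adjusted p = 0.362, 0.583 and 0.709). It was lower in P1 than in P2 by a log2 difference of -0.49 ± 0.15 (edgeR adjusted p = 0.0333), the opposite sign to cyp1b1, cyp1c1 and cyp1c2.

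Other genes of the AHR pathway moved along with the CYP1 genes in part. Of 25 tested genes of a list of receptors, partners, repressors and targets, 13 rose and 0 fell in P1, 13 rose and 2 fell in P2, and 12 rose and 1 fell in P3 against the control (edgeR). Over all tested genes, 7.08% rose and 9.19% fell in P1, 14.2% and 15.6% in P2, and 10.4% and 12.2% in P3. The median log2 difference of the list was 0.62, 0.37 and 0.18, against 0.0 over all genes in P1 and P2 and 0.01 in P3. The receptor ahr2, the main mediator of dioxin toxicity in zebrafish embryos, rose from 41.9 CPM to means of 74.8, 78.2 and 72.5 CPM in P1, P2 and P3 (log2 0.84 ± 0.13, 0.9 ± 0.13 and 0.79 ± 0.13; edgeR adjusted p = 0.000288, 8.2e-05 and 0.000248). Its relative ahr1b was at 6.51 CPM in the control and 4.72, 3.31 and 3.48 CPM in the exposed groups, and fell in P2 (-0.98 ± 0.25, adjusted p = 0.00668) and P3 (-0.9 ± 0.23, 0.0096) but was not called in P1 (-0.46 ± 0.23, 0.187). The dimerisation partners arnt (-0.35, -0.21 and -0.18) and arnt2 (-0.13, -0.15 and -0.22) did not pass the test in any phenotype, and ahr1a had too few reads to be tested.

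Of the genes that repress the receptor, tiparp and ahrrb rose, while ahrra was not matched and so not measured. The gene tiparp, whose product modifies and limits AHR, was at 44.1 CPM in the control and at 161, 145 and 153 CPM in P1, P2 and P3 (log2 1.87 ± 0.09, 1.72 ± 0.09 and 1.8 ± 0.09; edgeR adjusted p = 2.28e-10, 4.33e-10 and 3.66e-10). The AHR repressor gene ahrrb had 0 reads in the control and means of 1.19, 1.01 and 0.795 CPM in P1, P2 and P3, at least 4.75-fold, 4.06-fold and 3.18-fold higher when the control is set to 3 counts (edgeR adjusted p = 0.0148, 0.0141 and 0.031). Among target genes, the sulfotransferase sult6b1 went from 60.0 CPM to 470, 422 and 546 CPM and the forkhead transcription factor gene foxq1a from 2.09 CPM to 28.0, 20.5 and 26.0 CPM. The glutathione transferase gene gstp1 went from 139 to 428, 498 and 510 CPM, and the secreted-protein gene wfikkn1 from 16.8 to 45.0, 47.1 and 53.0 CPM, and all 4 passed the test in every phenotype. The quinone reductase gene nqo1, an AHR target in mammals, did not (0.19, 0.05 and -0.09, with edgeR adjusted p = 0.234, 0.758 and 0.594). Nor did aldh3a2a (0.11, -0.1 and 0.14) and aldh3b1 (-0.19, -0.2 and 0.02) of the same list, while aldh3a2b fell in P2 (-0.71 ± 0.21, edgeR adjusted p = 0.0157). The target genes named here were chosen after their values were seen. Between phenotypes, 4 of the 25 genes were higher and 2 lower in P1 than in P2 (cyp1d1 among the lower), 2 were higher and 2 lower in P3 than in P1, and 3 were higher and 2 lower in P3 than in P2. Over all tested genes 20.5%, 10.4% and 21.5% were called in these comparisons, so with all libraries the list was near the background there. Without P3 replicate 0 the last 2 splits were 3 against 3 and 7 against 2. In that setting 2156 genes were called in all for P3 against P1. For P3 against P2, at most 4654 were called with any 1 exposed library left out. Whether the list then stood apart from the background was not tested.

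Of 23 tested genes that serve P450 enzymes (electron donors, haem synthesis and haem breakdown), 4 rose and 1 fell in P1, 5 rose and 3 fell in P2, and 4 rose and 1 fell in P3 against the control (edgeR), with list medians of 0.12, 0.14 and -0.02. Without P3 replicate 0, 4 rose and 2 fell in P3. Over all tested genes 16.3% were called in P1 (7.08% higher, 9.19% lower), 29.8% in P2 (14.2% higher, 15.6% lower) and 22.6% in P3 (10.4% higher, 12.2% lower). In calls of either direction the list was thus near the background, with 18, 15 and 18 of the 23 genes not called in P1, P2 and P3. Of the genes named next, cyb5a, pgrmc1 and cyb5r3 were chosen after their values were seen. The first enzyme of haem synthesis outside red cells, alas1, rose from 49.3 CPM to 63.1, 74.5 and 77.7 CPM (log2 0.35 ± 0.1, 0.6 ± 0.1 and 0.66 ± 0.1; edgeR adjusted p = 0.0168, 0.000235 and 7.54e-05). The electron donor cyb5a went from 100 to 185, 206 and 180 CPM and the P450 partner pgrmc1 from 57.8 to 86.0, 87.4 and 89.0 CPM, with both called in every phenotype. The reductase gene cyb5r3 fell, from 51.7 to 35.8, 32.1 and 29.8 CPM. The haem oxygenase gene hmox1, which breaks haem down, was lower than the control in P2 (-0.52 ± 0.11, edgeR adjusted p = 0.00148) and was not called in P1 (-0.03 ± 0.1, 0.873) or P3 (-0.25 ± 0.1, 0.0877). Thus alas1, with P1 below both other phenotypes, had another order of phenotypes than the CYP1 genes.

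The genes whose change from the control was most like the mean of the 4 members were sought over the 8 exposed libraries among 14491 genes. These genes had at least 10 control reads, a minimum mean level and an assigned symbol, so genes with provisional clone or locus names were left out. In P1 and P3, every other tested gene with a fold change above that of any member had fewer control reads and was left out too. The distance from the members to the nearest other gene therefore holds for this set only. Likeness was measured as the root mean square of the log2 differences, with a median of 5.0 over these genes. The members themselves lay at 0.22 (cyp1a), 0.19 (cyp1b1), 0.3 (cyp1c1) and 0.55 (cyp1c2). The nearest other genes were slc16a9b, of a monocarboxylate transporter family, at 1.43, foxq1a at 1.49, sult6b1 at 2.01, the short-chain dehydrogenase gene dhrs13l1 at 2.42, slc16a9a at 2.44 and lonrf1l at 2.72. The members enter the mean they are set against, which favours them over other genes in this measure. The transporter gene slc16a9b went from 4.51 CPM in the control to 43.0, 84.7 and 68.0 CPM in P1, P2 and P3, with P2 highest where cyp1b1, cyp1c1 and cyp1c2 had P2 lowest, and slc16a9a had 2.39, 22.2 and 14.3 CPM in these groups against 0.835 CPM.

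Markers of skeletal muscle, eye and lens, endothelium and epidermis also moved between groups, and their part in the CYP1 differences was not tested. These data do not show which of these tissues carried CYP1 transcripts. All markers of the lists had reads in every group. Over all tested genes, 10.6% were higher and 9.91% lower in P1 than in P2, 6.01% higher and 4.42% lower in P3 than in P1, and 11% higher and 10.5% lower in P3 than in P2. Of 16 skeletal muscle markers, 13 were higher and 0 lower in P1 than in P2, 1 was higher and 9 lower in P3 than in P1 (2 and 8 without P3 replicate 0), and 5 were higher and 0 lower in P3 than in P2 (12 and 0 without P3 replicate 0). Their summed level was 31059 CPM in the control, 22675, 21284 and 21322 CPM in P1, 15158 and 15457 CPM in P2, and 14986, 18632 and 19812 CPM in P3. Both P2 libraries and P3 replicate 0 had the lowest sums, and these libraries also had the lowest cyp1c1 and cyp1c2 among the exposed. This grouping was not particular to muscle. The same libraries had the lowest eye and lens sums (293, 293 and 298 CPM) and the highest endothelial sums (444, 447 and 388 CPM) among the exposed. Their epidermal sums (17417, 17777 and 18945 CPM) spanned those of the other exposed libraries. Against the control, 14 muscle markers fell and 1 rose in each phenotype. Over all tested genes, 9.19% fell and 7.08% rose in P1, 15.6% and 14.2% in P2, and 12.2% and 10.4% in P3. Of 20 eye and lens markers, 10 were higher and 0 lower in P1 than in P2, with summed levels of 640 CPM in the control, 341 to 385 in P1, 293 in P2 and 298 to 305 in P3.

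**Figure D5:**
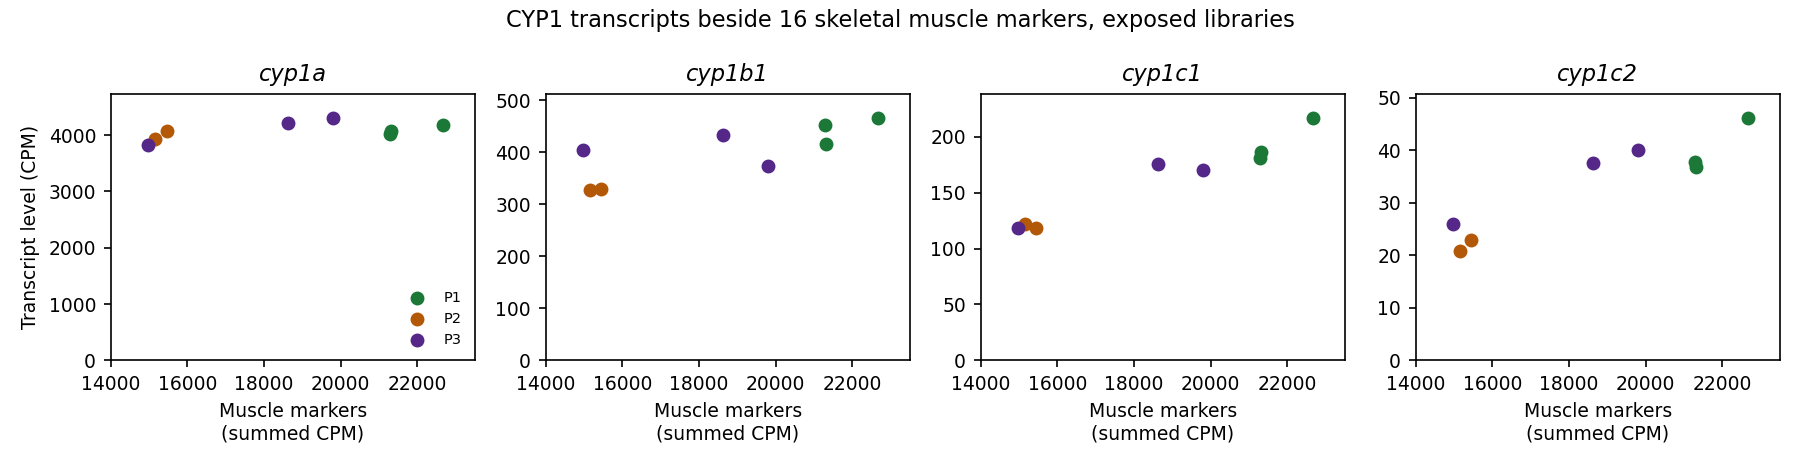
Level of each CYP1 gene (CPM, axis from 0) against the summed level of 16 skeletal muscle markers (CPM of the plain library total, axis not starting at 0) in the 8 exposed libraries, coloured by phenotype. The libraries with the lowest sums (14986 to 15457 CPM), both of P2 and P3 replicate 0, have the lowest cyp1c1 and cyp1c2, while for cyp1b1 P3 replicate 0 lies above P2 and cyp1a is flat.

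The endothelium and the epidermis, where CYP1A protein is known to be induced, had other orders. Of 15 endothelial markers, 0 rose and 4 fell in P1, 6 rose and 1 fell in P2, and 3 rose and 3 fell in P3 against the control, where 9.19%, 15.6% and 12.2% of all tested genes fell and 7.08%, 14.2% and 10.4% rose. Between P1 and P2, 0 of them were higher and 9 lower in P1, the reverse of cyp1b1, cyp1c1 and cyp1c2 (9.91% of all tested genes were lower), with summed levels of 369 CPM in the control, 322 to 345 in P1, 444 to 447 in P2 and 360 to 388 in P3. In P3 the same markers were 3 higher and 0 lower than in P1, and 1 higher and 4 lower than in P2. Without P3 replicate 0 they were 1 higher and 6 lower than in P2, and 2 rose and 3 fell against the control. Of 16 epidermal markers, 0 rose and 12 fell in P1, 1 rose (cldne) and 10 fell in P2, and 2 rose (cldne and epcam) and 11 fell in P3 against the control, and their sum went from 25254 CPM to between 17417 and 18945 CPM in the exposed libraries. The largest part of that sum was krt4, with 15357 CPM in the control and means of 10638, 9853 and 10828 CPM in P1, P2 and P3. Between P1 and P2, 1 epidermal marker was higher and 3 lower in P1. In P3, 4 were higher and 1 lower than in P1 (4 and 4 without P3 replicate 0). Against P2, 3 were higher and 2 lower in P3 (3 and 5 without P3 replicate 0). The part of these markers in the CYP1 values was not tested.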

How the data were processed

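Poly(A) RNA of whole embryos was sequenced after TruSeq RNA v2 library preparation, per the labels' protocols, and the submitters' processing notes name Novoalign, with no version, and the Zv9 genome. The counter, strand setting and annotation release were not given in the sources used here. The deposited tables hold raw counts per gene and FPKM by the authors, a variance-corrected log2 ratio by the authors, and scores of -10 log10 of the authors' p, per the file headers. The control counts were the same in all 3 tables, so 9 libraries were joined; 11 columns of variance-corrected counts and 9 splice columns were not used. The FPKM columns scale to the same totals as the counts.

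Counts were fitted with edgeR 4.0.16 (R 4.3.3, limma 3.58.1): TMM factors, filterByExpr (minimum count 10, minimum total 15), all 9 libraries in 1 fit with group as the term, two-sided quasi-likelihood F tests and Benjamini-Hochberg adjustment over 19835 genes at 0.05. The standard error is the log2 fold change divided by the root of F. DESeq2 1.42.0, other scalings and filters, pairwise fits, a replicate block and each phenotype replicate left out were the alternatives. The scripts were tested on simulated data. CPM of single genes scale counts by the library total of the tested genes times the TMM factor (0.978 to 1.014). Marker sums, the CPM of gchfr and the floors use the plain library total. On that plain scale 3 counts were worth 0.2498 CPM in the control and 0.1442 in the deepest library. Intervals and floors cover counting error only. Shares were compared by exact permutation.

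The 4 members, the gene lists and the tests were chosen with earlier results of these data known. Named genes were the members, the ahr, arnt, ahrr, tiparp, cyp1d1, hmox1 and alas1 genes, the 6 most like the members, and, per member, the 3 with the highest correlation; other listed genes were chosen after their values were seen. Of 29 AHR pathway entries, 3 were matched through the reference table and 2 were unmatched (ahrra and ugt1b1). Of 25 P450 entries, 2 were unmatched (pora and porb).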

Additional observations from a re-analysis of the deposited data

Results flagged for a closer look

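Levels differed between phenotypes in 6 tests of the difference itself, all of them on members other than cyp1a. All 6 used the same 2 P2 libraries and do not count as separate evidence. Over all tested genes, 20.5% were called for P1 against P2 and 21.5% for P3 against P2. All P1 libraries lay above both P2 libraries for 26.2% of all tested genes, and all P3 libraries for 24.8%. Not every call of P3 over P2 held in the alternatives. P1 exceeded P2 by 0.44 on the log2 scale for cyp1b1, 0.7 for cyp1c1 and 0.87 for cyp1c2, with every P1 library above every P2 library. P3 exceeded P2 by 0.3 for cyp1b1 and 0.66 for cyp1c2, without overlap of libraries, and by 0.37 for cyp1c1, where P3 replicate 0 lay with P2. The adjusted p-values of edgeR and the values without single libraries stand with these comparisons in the text above.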

How the results depend on the processing

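All 180 values of the 4 members against the control under the alternatives kept their direction and call (log2 3.95 to 5.67, highest adjusted p = 1.95e-05). With DESeq2 fewer genes were called: 1917 against 3227 (P1 against control), 3820 against 5916 (P2), 2736 against 4482 (P3), 2471 against 4072 (P1 against P2), 1263 against 2069 (P3 against P1) and 2656 against 4270 (P3 against P2). Leaving out single replicates moved these counts to 2369 to 4208, 3981 to 6815, 3963 to 4673, 1725 to 5206, 1301 to 2156 and 1885 to 4654. The highest counts for P1 against control (4208), P2 against control (6815) and P1 against P2 (5206) came without P3 replicate 0. These comparisons do not hold that library, but it enters the spread that all groups share in the fit. The cause of the moves was not tested. Members called ranged from 0 to 1 for P3 against P1 (1 with no filter) and from 0 to 3 for P3 against P2. For P3 against P1, cyp1a ranged from -0.03 to 0.06, turning to -0.01 without P3 replicate 1 and -0.03 without P3 replicate 2, and was called in none of these; cyp1c1 ranged from -0.43 to -0.17 and was called with no filter (-0.33, adjusted p = 2.46e-05). For P3 against P2, cyp1b1 ranged from 0.24 to 0.35, cyp1c1 from 0.27 to 0.53 and cyp1c2 from 0.53 to 0.82. The difference in cyp1c1 between P3 and P2 was also lost with DESeq2 (0.36, adjusted p = 0.243) and with the replicate block (0.34, adjusted p = 0.112). The replicate numbers did not pair the samples (correlations of same-numbered deviations -0.11 to 0.02), and the block moved the joint count from 5708 to 4409 genes. The share of cyp1a was 87.7, 91.1 and 89.2% of FPKM in P1, P2 and P3, and 86.5% in P1 and 89.9% in P2 without cyp1c2. The limits are 1 control library, 16 control reads of cyp1c2, 2 libraries of P2, a close pair of CYP1C copies and an unstated strand setting.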

Other observations

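The neighbour of cyp1c2 on the side away from cyp1c1, by the reference annotation, also rose. On Zv9_scaffold3548, which holds 4 genes of the tables, gchfr (ENSDARG00000012187, 229917 to 235080), known as the feedback regulator of the first enzyme of tetrahydrobiopterin synthesis, had 9 reads in the control (0.749 CPM). It had 142, 134 and 133 reads in P1, 129 and 152 in P2, and 112, 121 and 171 in P3. Its log2 fold change over the control was 3.52 ± 0.3 in P1, 3.41 ± 0.31 in P2 and 3.35 ± 0.3 in P3 (edgeR adjusted p = 4.43e-07, 3.23e-07 and 3.67e-07). Between phenotypes it was not called, with log2 differences of 0.11 for P1 against P2, -0.17 for P3 against P1 and -0.06 for P3 against P2 (edgeR adjusted p = 0.575, 0.368 and 0.77). This gene was singled out after its values were seen.

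Within the 8 exposed libraries, genes with levels most like each member were sought by Pearson correlation of log2 levels. The search covered only genes with at least 10 control reads, a minimum mean level and an assigned symbol. It is a description with no test, since libraries of 1 phenotype share their group. For cyp1c1 these were actn3a (0.991; 272 to 448 CPM), which encodes a muscle actinin, pah (0.99) and CAPN3 (2 of 2) (0.988), and for cyp1c2 atp2a1 (0.99; 3783 to 5852 CPM), which encodes a muscle calcium pump, fam204a (0.986) and pmela (0.986). For cyp1b1 they were rhoua (0.993), znf692 (0.973) and B3GNT1 (0.97), and for cyp1a, whose levels hardly varied, cldnk (0.97), clec16a (0.962) and slc40a1 (0.961).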
